A study of Mus musculus with 18 samples.

Results

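The interaction of Pole4 loss and Trp53 loss is the amount by which the change a gene shows when Trp53 is lost differs between cells with and without Pole4. It was read from 12 of the 18 RNA-seq libraries of the series, made from primary mouse embryonic fibroblasts (MEFs) of 4 genotypes with 3 libraries each. Wild-type cells (Pole4+/+ Trp53+/+) were set beside cells without TRP53 (Pole4+/+ Trp53-/-), cells without POLE4 (Pole4-/- Trp53+/+) and cells without both (Pole4-/- Trp53-/-). The other 6 libraries, from Pole4+/+ Trp53+/- and Pole4-/- Trp53+/- MEFs, are in no arm of the contrast and were read beside it. They were part of the fit, so the gene filter, the scaling and the estimate of spread behind each p-value rest on them too. All cells were taken at passage 1 and grown at 5% oxygen without any treatment, and came from C57BL/6 embryos of matings between parents heterozygous for both genes. Both null alleles were inherited and not induced in culture. Embryo heads and inner organs had been removed before the tissue was plated, so the cultures are mixed mesenchymal cells and not a clone. For each gene, the interaction log2 value is the log2 fold change with Trp53 loss in Pole4-/- cells minus that in Pole4+/+ cells, so that 0 means that both losses add up on the log scale.

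POLE4 is a small histone-fold subunit of DNA polymerase epsilon, the enzyme that copies the leading strand and that is part of the helicase complex at origins. TRP53 is a transcription factor that answers DNA damage and replication stress and raises genes such as Cdkn1a, whose product p21 inhibits cyclin-dependent kinases. With these kinases inhibited, pocket proteins and the DREAM complex stay on the promoters of cell division genes, at E2F sites and CHR elements, and hold these genes low.

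The 12 libraries held 10608167 to 32155281 counts. Ribosomal RNA genes took 1.82 to 13.1% of the counts in Pole4+/+ libraries and 7.11 to 42.5% in Pole4-/- libraries, so that this share moved with the Pole4 genotype. Sex moved with the genotype as well. All Pole4+/+ libraries of the contrast were female by Xist and 4 Y-linked genes, while replicates 2 and 3 of Pole4-/- Trp53+/+ and replicate 2 of Pole4-/- Trp53-/- were male. Replicate 1 of Pole4+/+ Trp53-/-, with 857 CPM of Xist, held 7.20 CPM of the Y-linked genes, where the other female libraries of the contrast held 0 to 0.302 and the male ones at least 171. That library also stood apart from its own genotype in several results below. Trp53 stood at 89.7, 96.1 and 86.6 CPM in Pole4+/+ Trp53+/+ and at 64.2, 70.5 and 72.7 CPM in Pole4-/- Trp53+/+, against 8.65 to 12.1 CPM in the 6 Trp53-/- libraries. Pole4 mRNA was lower, not absent, in Pole4-/- libraries. It stood at 9.26 to 11.99 CPM there and at 14.2 to 26.4 CPM in Pole4+/+ libraries. Which exons the allele lacks is not given in the sources used here.

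Of 15710 genes tested, 52 (0.331%) had an interaction at a Benjamini-Hochberg adjusted p under 0.05 in edgeR's quasi-likelihood test, 28 above 0 (0.178%) and 24 below 0 (0.153%). Of the 28, 14 stood in lists of cell division genes, which hold 2.59% of the genes tested, and of the 24 none did. These lists were chosen with earlier results of these data known. Of the 28 genes, 27 were lowest in Pole4-/- Trp53+/+ cells and 26 were highest in Pole4-/- Trp53-/- cells by their mean level. Of the 24 genes, 23 were highest in Pole4-/- Trp53+/+ cells. This count was unstable. The adjusted p values of the 52 lay between 0.0313 and 0.0486, and 494 genes had one under 0.06. Without adjustment, 4453 genes had a p under 0.05. In 11 of 24 alternative fits no gene was called.

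**Figure D1:**
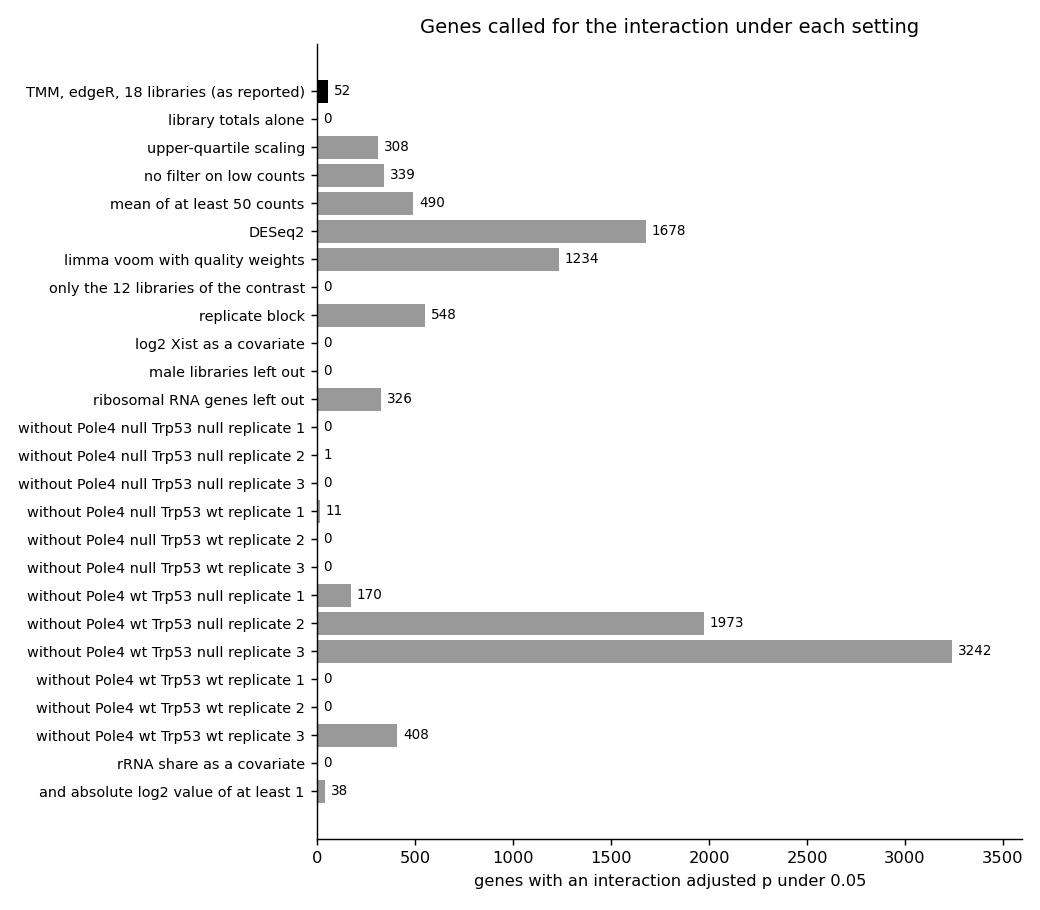
Genes with an interaction adjusted p under 0.05 (horizontal axis, number of genes) as reported (black bar) and under each alternative setting (grey bars, 1 per setting). The count runs from 0, when only library totals set the scale, only the 12 libraries are fitted, or Xist level or ribosomal RNA share is a covariate, to 3242 without replicate 3 of Pole4+/+ Trp53-/-.

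The count was 0 when library totals replaced TMM scaling and when the 12 libraries were fitted without the heterozygotes. It was also 0 when log2 Xist or the share of ribosomal RNA was a covariate. Without adjustment, a p under 0.05 was still reached by 2436, 3661, 4113 and 4012 genes in these fits. Leaving out the male libraries kept 1 library of Pole4-/- Trp53+/+, so that fit gives no count to set beside these. The count was 1678 by DESeq2 and 1234 by limma's voom with quality weights. It was 170 without replicate 1 of Pole4+/+ Trp53-/-, 1973 without its replicate 2 and 3242 without its replicate 3. Leaving out any other single library of the contrast gave 0 to 408 genes. The sign was steadier than the call. All 52 genes kept the sign of their interaction value under each of the 24 alternative fits in which they could be tested, while each passed the adjusted threshold in 9 to 12 of them. These alternatives reuse the same libraries, so the kept sign is a description and adds no evidence.

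With Trp53 lost, the called genes above 0 and those below 0 moved apart in Pole4-/- cells. Of the 28 genes above 0, 27 rose with Trp53 loss in Pole4-/- cells (21.8% of all genes rose there) and 13 rose in Pole4+/+ cells (2.23% of all genes). All 24 genes below 0 fell with Trp53 loss in Pole4-/- cells (20.8% of all genes fell there), and 2 fell while 3 rose in Pole4+/+ cells (2.37% of all genes fell). The contrast that chose the genes is made of these effects, so the counts describe the genes and test nothing. The median log2 fold change with Trp53 loss across the 28 genes was 0.52 without and 1.56 with Pole4 loss, and across the 24 it was -0.01 and -1.92. Over all genes tested these medians were 0.03 and -0.02.

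**Figure D2:**
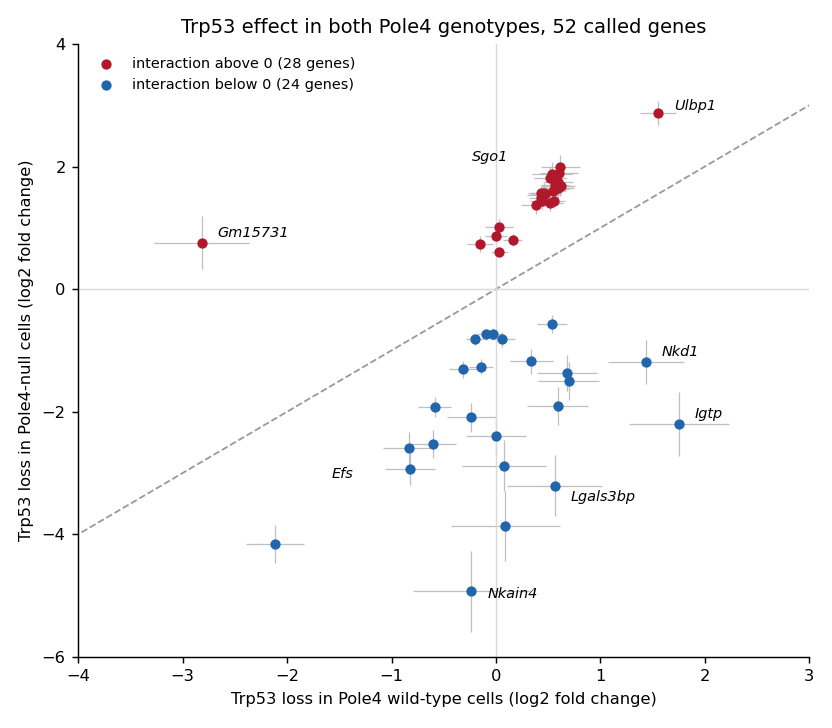
Log2 fold change with Trp53 loss in Pole4-null cells (vertical axis) against that in Pole4 wild-type cells (horizontal axis) for the 52 genes called for the interaction, with bars of 1 SE; points on the dashed line would have no interaction. The 28 genes in red lie above the line, most of them near 0.5 on the horizontal and 1.6 on the vertical axis, and the 24 in blue below it.

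The genotype that differed most from the other 3 was Pole4-/- Trp53+/+ for 46 of the 52 genes, Pole4-/- Trp53-/- for 5 (Fastkd5, Igtp, Tspan13, Pgls and Pskh1) and Pole4+/+ Trp53-/- for 1 (Gm15731). It was Pole4-/- Trp53+/+ for 52.9% of all genes tested as well, and for 72.9% of those with an unadjusted interaction p under 0.05. The libraries of the genotype that differed most, whichever it was, did not overlap those of the other 3 for 50 of the 52 genes, against 24.9% of all genes tested, and for 44 of the 50 that genotype was Pole4-/- Trp53+/+. Pole4 loss in Trp53+/+ cells lowered 27 of the 28 genes (2.70% of all genes were lower) and raised 19 of the 24 (1.29% of all genes were higher). The 52 genes were chosen by a contrast of these same libraries, so these counts describe them and test nothing. In Trp53-/- cells Pole4 loss changed none of the 52, at 0.00637% of all genes called, which is 1 gene, Tbx20, no member of the 52 and named after its value was seen. The quasi-likelihood test gave an unadjusted p under 0.05 for 1636 genes in that comparison, and DESeq2 called 29. The 1636 became 870 without replicate 1 and 3551 without replicate 3 of Pole4+/+ Trp53-/-, and 600 with ribosomal RNA share as a covariate. A missed threshold does not show that Pole4 loss had no effect there. The count of genes changed by Pole4 loss in Trp53+/+ cells fell from 626 to 17 in the fit of 12 libraries and to 11 with Xist as a covariate. Leaving out the male libraries kept 1 library of Pole4-/- Trp53+/+, so that fit gives no count to set beside these.

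Fam111a, which encodes a protease needed to copy past protein obstacles on DNA, had the lowest interaction p. It stood at 56.8, 64.2 and 58.0 CPM in Pole4+/+ Trp53+/+, at 64.2, 89.2 and 87.7 CPM in Pole4+/+ Trp53-/-, at 33.9, 33.8 and 34.1 CPM in Pole4-/- Trp53+/+ and at 92.5, 89.6 and 102.7 CPM in Pole4-/- Trp53-/- libraries. The Pole4-/- Trp53+/+ libraries were the 3 lowest and lay close together. The interaction log2 value was 1.06 (SE 0.16, adjusted p 0.0313 by edgeR). Parpbp, an inhibitor of homologous recombination, followed the same order. Its Pole4-/- Trp53+/+ libraries stood at 8.31, 6.76 and 7.63 CPM, its Pole4-/- Trp53-/- libraries at 21.6, 22.7 and 23.1 CPM, its Pole4+/+ Trp53+/+ libraries at 15.4, 14.9 and 13.0 CPM, and its Pole4+/+ Trp53-/- libraries at 16.5, 19.8 and 22.6 CPM. The interaction log2 value was 1.13 (SE 0.17). For neither gene did the libraries of Pole4-/- Trp53+/+ overlap those of any other genotype.

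The promoters of the 4 genes with the lowest interaction p that carry a searched motif are shown, because the E2F, CHR and CCAAT elements they could hold are those through which cell division genes are known to be controlled. Each is the 250 bases before the start in RefSeq's annotation (GRCm38.p6), read 5′ to 3′ on the gene's strand, and capitals mark a match on either strand. Fam111a (chr19:12573260-12573509, plus strand) has 3 CCAAT matches, from 183, 92 and 50 bases before the start. RefSeq lists 2 promoters for Fam111a, and the first that carries a match is shown. Parpbp (chr10:88146942-88147191, minus strand) has a CCAAT match from 35 and the CHR letters from 9 bases before the start. Bub1b (chr2:118597961-118598210, plus strand) has a CHR match from 188 and a CCAAT match from 113 bases before the start, and Brca1 (chr11:101551956-101552205, minus strand) has a CCAAT match from 86 bases before it.
Fam111a: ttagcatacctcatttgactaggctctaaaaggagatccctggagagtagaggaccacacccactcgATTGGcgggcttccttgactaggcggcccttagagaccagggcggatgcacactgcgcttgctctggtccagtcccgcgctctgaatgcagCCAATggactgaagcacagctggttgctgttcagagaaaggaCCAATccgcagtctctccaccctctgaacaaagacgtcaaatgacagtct
Parpbp: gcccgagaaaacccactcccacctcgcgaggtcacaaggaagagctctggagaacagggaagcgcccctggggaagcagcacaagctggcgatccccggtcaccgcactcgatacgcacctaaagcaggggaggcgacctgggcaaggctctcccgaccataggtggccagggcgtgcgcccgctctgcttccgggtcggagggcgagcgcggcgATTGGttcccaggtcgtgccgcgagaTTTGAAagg
Bub1b: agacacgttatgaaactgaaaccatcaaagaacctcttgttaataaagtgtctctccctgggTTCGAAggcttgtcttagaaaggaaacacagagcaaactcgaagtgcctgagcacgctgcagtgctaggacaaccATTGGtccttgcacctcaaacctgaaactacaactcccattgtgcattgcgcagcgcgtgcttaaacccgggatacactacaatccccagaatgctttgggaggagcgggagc
Brca1: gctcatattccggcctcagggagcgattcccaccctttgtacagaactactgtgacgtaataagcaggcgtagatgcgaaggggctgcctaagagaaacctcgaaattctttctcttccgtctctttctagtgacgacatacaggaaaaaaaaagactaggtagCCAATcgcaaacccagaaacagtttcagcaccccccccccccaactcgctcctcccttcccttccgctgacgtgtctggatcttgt

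Among the 27 genes above 0 with a RefSeq promoter, 11 held a CHR match (TTTGAA or TTCGAA, either strand), 16 a CCAAT match and 2 an E2F match (TTTCCCGC, TTTCGCGC, TTTGCCGC or TTTGGCGC, either strand). Over the 10689 tested genes with a promoter, the shares were 14.6% for CHR, 40.6% for CCAAT and 3.92% for E2F. Over all 32851 promoters in the table they were 17.1%, 33.8% and 1.86%. The 18 genes below 0 with a promoter held 3 CHR, 4 CCAAT and 1 E2F matches. Words this short recur often in sequence of this length, a match is no shown site, and genes with several listed starts had more windows to match in.

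The mitotic genes among the 28 stood in one order of genotypes. Top2a, the topoisomerase that untangles sister chromosomes, stood at 299.1, 270.1 and 220.2 CPM in Pole4+/+ Trp53+/+, at 294.6, 427.4 and 461.7 in Pole4+/+ Trp53-/-, at 159.2, 145.6 and 154.7 in Pole4-/- Trp53+/+ and at 470.4, 472.3 and 529.5 CPM in Pole4-/- Trp53-/- libraries. Bub1b, a kinase-like protein of the spindle checkpoint, stood at 49.2, 48.1 and 41.4 CPM, at 57.0, 75.5 and 82.0 CPM, at 26.6, 25.2 and 22.4 CPM and at 75.3, 77.8 and 86.4 CPM in the same order. In both genes the highest Pole4-/- Trp53+/+ library lay under every library of the other genotypes, and replicate 1 of Pole4+/+ Trp53-/- was the lowest of its genotype, near or inside the Pole4+/+ Trp53+/+ range for Top2a. The interaction log2 values were 1.10 (SE 0.21) for Top2a and 1.06 (SE 0.18) for Bub1b. Values were close to these for Kif11 (1.05), Kif14 (1.09), Knl1 (1.08), Kntc1 (1.10), Ncapg (1.07) and Ncapg2 (1.07), which encode mitotic kinesins, kinetochore proteins and condensin subunits. They were larger for Ect2 (1.29), which starts cytokinesis, for Trip13 (1.34), which takes apart spindle checkpoint complexes, and for Sgo1 (1.37), which protects cohesin at centromeres. Ncapg overlaps Lcorl, which was not called, on the other strand.

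Repair and replication genes among the 28 followed the same order of genotypes. Brca1, a central factor of homologous recombination, stood at 21.3, 22.3 and 18.6 CPM in Pole4+/+ Trp53+/+, at 26.1, 32.7 and 32.9 in Pole4+/+ Trp53-/-, at 13.8, 13.3 and 15.8 in Pole4-/- Trp53+/+ and at 37.7, 38.5 and 39.1 CPM in Pole4-/- Trp53-/- libraries. For Brca1 the libraries of none of these 4 genotypes overlapped those of another. The interaction log2 value was 0.88 (SE 0.15, adjusted p 0.0313 by edgeR). Pola1, the catalytic subunit of the primase-bound polymerase that starts each new strand, stood at 35.3, 31.9 and 29.8 CPM, at 37.1, 55.0 and 54.9 CPM, at 18.4, 18.4 and 15.3 CPM and at 61.3, 50.7 and 63.9 CPM in the same order, with an interaction log2 value of 1.16 (SE 0.21). Fanci (0.99) and Brip1 (0.99), of the Fanconi anemia pathway, and Fignl1 (1.13), a factor of homologous recombination, were called too. Fanci overlaps Polg on the other strand, and whether reads were counted by strand is not given in the sources used here. Polg had an interaction log2 value of 0.41 and was not called.

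Among the rest of the 28, Nusap1 (0.89), a spindle protein, Hspa4l (0.99), a chaperone, Txnrd3 (0.89), a thioredoxin reductase, Smyd2 (0.58), a lysine methyltransferase, Dock11 (0.64), an activator of small GTPases, Fastkd5 (0.86), of mitochondrial RNA processing, and Epb41l4a (1.302) and BC055324 (1.05) had interaction values above 0. BC055324 overlaps Scyl3 and Nusap1 overlaps Oip5 on the other strand. Ulbp1, a surface ligand that marks stressed cells for natural killer cells, had the largest rise with Trp53 loss in both Pole4 genotypes among the 28. It stood at 6.89, 9.46 and 8.66 CPM in Pole4+/+ Trp53+/+, at 19.97, 22.6 and 31.0 in Pole4+/+ Trp53-/-, at 2.70, 3.34 and 2.94 in Pole4-/- Trp53+/+ and at 18.4, 21.1 and 25.8 CPM in Pole4-/- Trp53-/- libraries. Both Trp53-/- genotypes overlapped and both Trp53+/+ genotypes did not. Its family has near copies among which reads may have been divided. Gm15731, annotated as an antisense RNA inside Sri, had the highest interaction value, 3.58 (SE 0.63). It rested on 24, 14 and 11 counts in Pole4+/+ Trp53+/+ and on 3, 3 and 1 in Pole4+/+ Trp53-/- libraries, where it stood at 13.4% of the first genotype's level (exact 95% interval 5.11 to 29.7%, for counting error only). Without strand its reads cannot be told from those of Sri, which had 61.6 CPM on average. The fitted value of a gene with so few counts depends on the prior count.

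Among the 24 genes below 0, Cst3, Srpx2, Gas6, Htra3, Pamr1 and Col28a1 encode secreted or matrix proteins. Cst3, the secreted protease inhibitor cystatin C, had the lowest p among them. It stood at 88.3, 88.8 and 91.5 CPM in Pole4+/+ Trp53+/+, at 99.9, 78.4 and 64.4 in Pole4+/+ Trp53-/-, at 170.6, 149.3 and 161.4 in Pole4-/- Trp53+/+ and at 67.5, 71.4 and 61.2 CPM in Pole4-/- Trp53-/- libraries. The Pole4-/- Trp53+/+ libraries were the 3 highest, and those of both Trp53-/- genotypes overlapped. The interaction log2 value was -1.12 (SE 0.17, adjusted p 0.0313 by edgeR). Csgalnact1, which starts chondroitin sulfate chains, stood at 14.3, 10.4 and 16.3 CPM, at 12.1, 6.98 and 7.68 CPM, at 42.6, 36.0 and 37.1 CPM and at 7.62, 6.23 and 6.10 CPM in the same order, with a value of -1.93 (SE 0.31). Chpf (-0.99), which lengthens the same chains, Srpx2 (-1.11), a secreted sushi-domain protein, and Gas6 (-1.76), a ligand of TAM receptor kinases, were called as well. Htra3, a secreted protease, had a value of -2.50 (SE 0.43), Pamr1, a secreted protein linked to muscle regeneration, one of -3.95 (SE 0.76), and the collagen gene Col28a1 one of -2.96 (SE 0.58). By voom the interaction log2 value of Col28a1 was -1.87 and the interaction log2 value of Pamr1 -2.20.

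Genes of signalling and adhesion were among the 24 too. Efs, an adaptor of SRC kinases, stood at 7.65, 5.89 and 6.47 CPM in Pole4+/+ Trp53+/+, at 5.33, 3.49 and 2.18 in Pole4+/+ Trp53-/-, at 16.4, 15.4 and 17.8 in Pole4-/- Trp53+/+ and at 2.36, 2.09 and 1.99 CPM in Pole4-/- Trp53-/- libraries. Cxcl14, a chemokine of mesenchymal cells, stood at 14.5, 9.41 and 11.7 CPM, at 26.6, 17.0 and 13.2 CPM, at 39.2, 46.7 and 28.1 CPM and at 15.4, 14.7 and 14.2 CPM in the same order. For both, every Pole4-/- Trp53+/+ library lay above every library of the other 3 genotypes, by a wide margin for Efs and a narrow one for Cxcl14, whose highest Pole4+/+ Trp53-/- library was replicate 1. A Pole4+/+ Trp53+/- library held 30.9 CPM of Cxcl14, more than the lowest Pole4-/- Trp53+/+ library. The interaction log2 values were -2.11 (SE 0.35) and -2.05 (SE 0.41). Nkd1, an inhibitor of Wnt signalling, had a value of -2.63 (SE 0.52), the surface protein gene Tspan13 one of -2.19 (SE 0.43), Aplp1, of the amyloid precursor family, one of -1.34 (SE 0.23), and the transcription factor gene Foxp2 one of -1.86 (SE 0.33). Csdc2, which encodes an RNA-binding cold-shock protein, had one of -2.40 (SE 0.41). Values for Mtss1 (-1.52), which shapes actin at membranes, Trim7 (-2.04), a ubiquitin ligase, Rtl6 (-0.88), Pgls (-0.70), of the pentose phosphate pathway, Pskh1 (-0.64), a kinase, and Tprgl (-0.62) were below 0 as well. Tspan13, Pgls and Pskh1 differed most in Pole4-/- Trp53-/- and not in Pole4-/- Trp53+/+ cells.

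For the genes with the lowest values, 1 library carried much of the spread. Lgals3bp, a secreted galectin-binding glycoprotein raised by interferon, stood at 5.74, 4.86 and 8.13 CPM in Pole4+/+ Trp53+/+, at 18.1, 4.42 and 4.37 in Pole4+/+ Trp53-/-, at 27.04, 21.9 and 24.8 in Pole4-/- Trp53+/+ and at 2.31, 3.77 and 1.86 CPM in Pole4-/- Trp53-/- libraries. Igtp, an interferon-inducible GTPase, stood at 0.514, 0.517 and 0.653 CPM, at 3.43, 1.12 and 0.970 CPM, at 2.10, 1.08 and 1.34 CPM and at 0.454, 0.262 and 0.265 CPM in the same order. In these, replicate 1 of Pole4+/+ Trp53-/- was far above the other libraries of its genotype, and it is the library that held some Y-linked RNA. The part of that in these values was not tested. Without that library the interaction values lay closer to 0, at -2.69 for Lgals3bp and -3.10 for Igtp. The same library was the highest of its genotype for Pamr1, with 3.46 CPM against 0.466 and 0.889, for Nkain4, with 0.948 against 0.233 and 0.242, and for Nkd1, with 8.34 against 3.18 and 2.26. Without it the interaction log2 value of Pamr1 was -2.53, the interaction log2 value of Nkain4 -3.60 (no longer called) and the interaction log2 value of Nkd1 -1.85. Igtp overlaps Irgm2 on the same strand, and RSEM may have divided reads among these GTPases. Nkain4, with the lowest value of the 52 at -4.70 (SE 0.87), rested on 77, 74 and 21 counts in Pole4-/- Trp53+/+ and on 2, 4 and 1 in Pole4-/- Trp53-/- libraries, where it stood at 3.34% of the first genotype's level (exact 95% interval 1.32 to 7.03%, for counting error only).

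**Figure D3:**
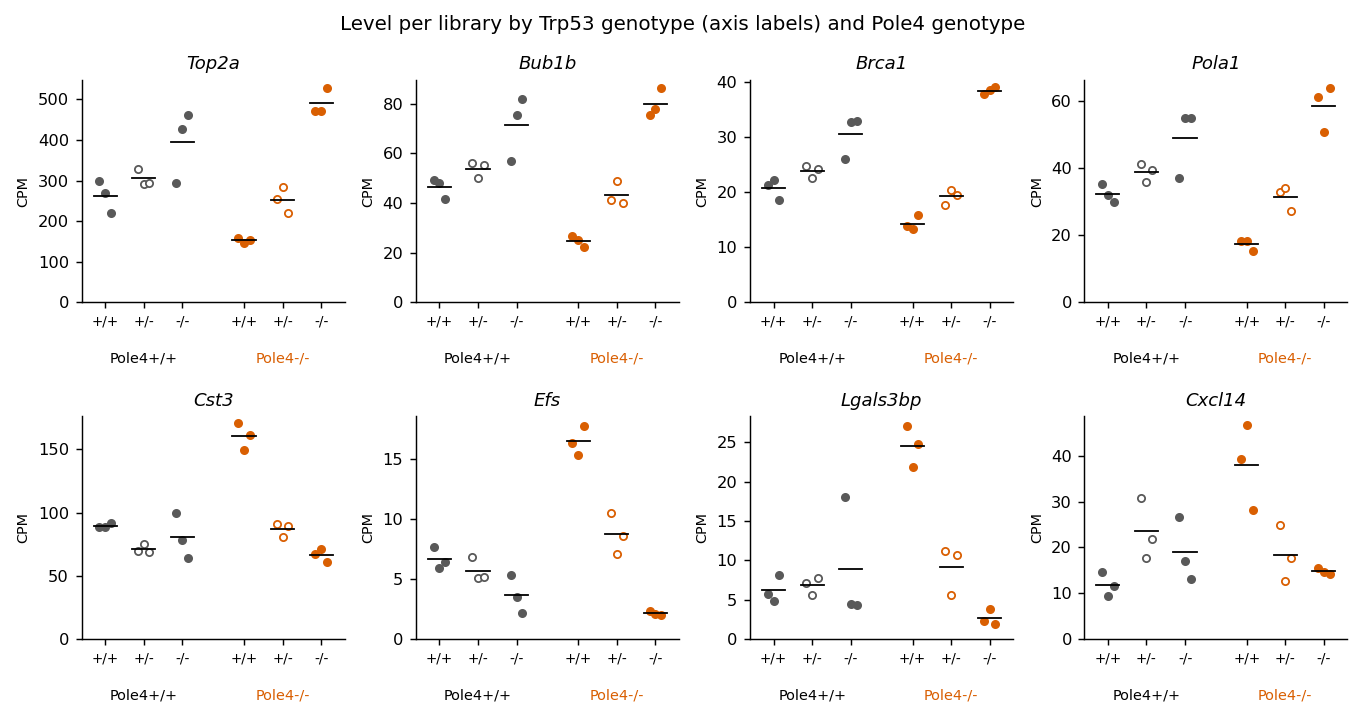
Level in CPM (vertical axes, from 0) of 8 called genes in every library of 6 genotypes; points are libraries, lines are means of 3, open points are Trp53 heterozygotes, and orange marks Pole4-/-. Top2a, Bub1b, Brca1 and Pola1 are lowest and Cst3, Efs, Lgals3bp and Cxcl14 highest, by their means, in Pole4-/- Trp53+/+ cells.

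Across functional lists of genes, the 6 with the highest median interaction values were lists of cell division. Ribosome biogenesis followed with 0.82 over 38 genes, above the other lists of cell division. The E2F targets, genes of DNA synthesis and mitosis driven by E2F factors, had a median of 0.82 over 149 tested genes, against -0.02 over all genes. Of them 4 were called, all above 0 (Brca1, Bub1b, Top2a and Trip13), and 128 had an unadjusted p under 0.05 above 0, where 13.9% of all genes did. The mean log2 CPM of the list was 5.27, 5.32 and 4.99 in Pole4+/+ Trp53+/+, 5.20, 5.80 and 5.87 in Pole4+/+ Trp53-/-, 4.58, 4.56 and 4.55 in Pole4-/- Trp53+/+ and 5.75, 5.73 and 5.90 in Pole4-/- Trp53-/- libraries. The Pole4-/- Trp53+/+ libraries lay together under all the others. Of these, replicate 1 was female with 7.11% ribosomal RNA and replicates 2 and 3 were male with 24.1 and 42.5%. Replicate 1 of Pole4+/+ Trp53-/- lay among the Pole4+/+ Trp53+/+ libraries. Without it the median interaction value of the list was 0.62.

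**Figure D4:**
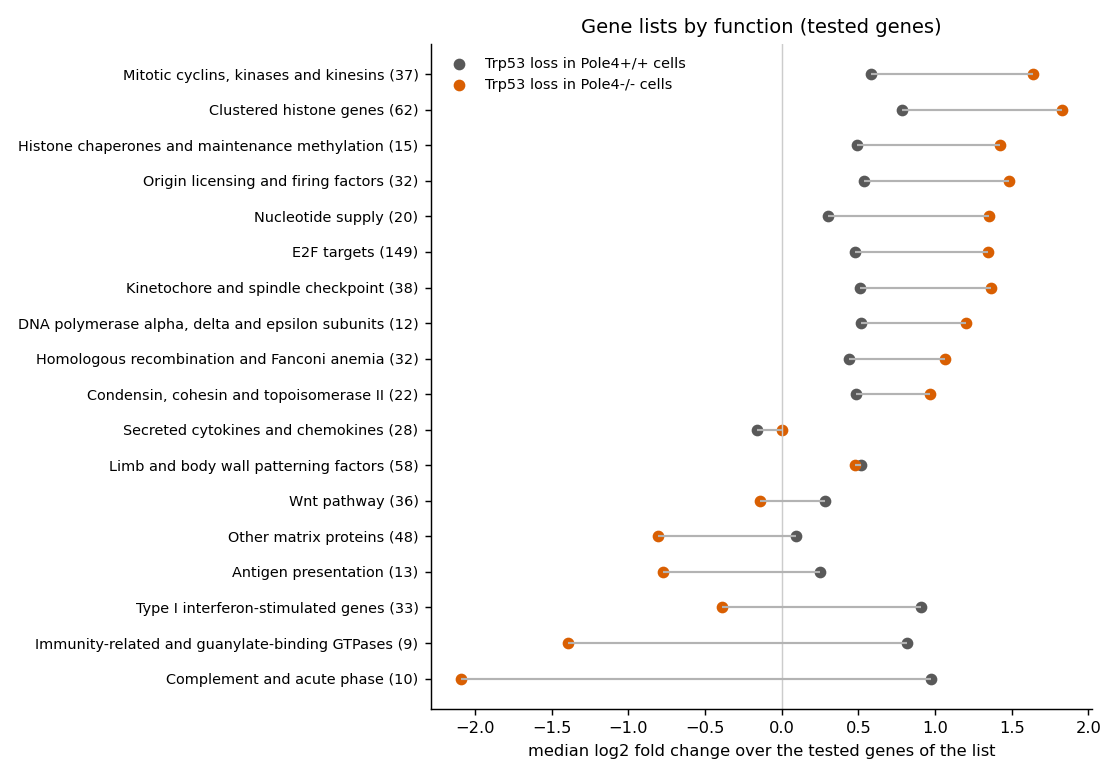
Median log2 fold change with Trp53 loss (horizontal axis) over the tested genes of 18 functional lists, in Pole4+/+ (grey) and Pole4-/- cells (orange), with the number of tested genes in parentheses. The 10 cell division lists at the top lie further to the right in Pole4-/- cells, and the 6 lowest lists lie to the right of 0 in Pole4+/+ and to the left in Pole4-/- cells.

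Most other lists of cell division had medians above 0 as well, but translesion synthesis and damage tolerance had one of -0.09 over 18 genes. The mitotic cyclins, kinases and kinesins had the highest median, 1.08 over 37 genes, with 3 called (Ect2, Kif11 and Kif14). The clustered histone genes had a median of 1.00 over 62 genes with none called, led by Hist1h2bf (1.27, SE 0.34) and Hist1h2bk (1.61, SE 0.43), whose copies are nearly identical so that reads may have been divided among them. Histone chaperones and maintenance methylation had 0.97 over 15 genes, led by Hells (1.27, SE 0.26) and Mms22l (1.01, SE 0.23). Origin licensing and firing factors had 0.94 over 32 genes, led by Mtbp (0.78, SE 0.17), which overlaps Mrpl13 on the other strand, and Dbf4 (1.06, SE 0.23), and nucleotide supply 0.87 over 20 genes, with Dck at 0.85 (SE 0.21). None of these 4 lists had a called gene. The kinetochore and spindle checkpoint list had a median of 0.81 over 38 genes with 4 called, recombination and Fanconi anemia 0.66 over 32 with 3 called (Brca1, Brip1 and Fanci), and condensin, cohesin and topoisomerase II 0.47 over 22 with 3 called (Ncapg, Ncapg2 and Top2a). Many genes stand in more than 1 of these lists. Of the lists of cell division in this paragraph, all but translesion synthesis and damage tolerance kept a median above 0 under all 24 alternative fits.

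The 10 lists of cell division described in full include the polymerase list below and leave out translesion synthesis and damage tolerance. In these 10 lists Trp53 loss raised most genes in Pole4-/- cells, where 21.8% of all genes rose. It raised fewer in Pole4+/+ cells, where 2.23% of all genes rose. Of the E2F targets, 142 rose in Pole4-/- and 28 in Pole4+/+ cells. Of the mitotic cyclins, kinases and kinesins, 35 rose in Pole4-/- and 8 in Pole4+/+ cells, and 30 of the 37 were lower with Pole4 loss in Trp53+/+ cells, where 2.70% of all genes were. Of the clustered histone genes, 54 and 5 rose. These counts of calls were not themselves compared by a test, and those in Pole4+/+ cells were not recomputed without replicate 1 of Pole4+/+ Trp53-/-, the library without which 1369 of all genes rose there, against 351 with it.

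DNA polymerase epsilon was among the lists. The list of polymerase alpha, delta and epsilon subunits had a median of 0.72 over 12 genes, with Pola1 called. Pole, the catalytic subunit of polymerase epsilon, stood at 39.6, 39.9 and 29.2 CPM in Pole4+/+ Trp53+/+, at 37.5, 55.3 and 76.7 in Pole4+/+ Trp53-/-, at 19.2, 17.4 and 20.4 in Pole4-/- Trp53+/+ and at 60.1, 60.3 and 73.0 CPM in Pole4-/- Trp53-/- libraries. Its interaction log2 value was 1.13 (SE 0.28), just outside the threshold with an adjusted p of 0.0524 by edgeR. Pole2, the second subunit, stood at 6.44, 7.29 and 5.58 CPM, at 5.69, 12.7 and 9.62 CPM, at 3.22, 2.84 and 3.75 CPM and at 12.02, 10.3 and 11.3 CPM in the same order, with a value of 1.26 (SE 0.33, adjusted p 0.0583 by edgeR). Pole2 overlaps the annotated gene Gm49384 on the same strand, so reads may have been divided between them. For both genes the Pole4-/- Trp53+/+ libraries were the 3 lowest, and the Pole4+/+ and Pole4-/- libraries of Trp53-/- cells overlapped. Pole3, a histone-fold partner of POLE4, had a value of 0.29 (SE 0.22) and Pole4 itself one of 0.02 (SE 0.27), whose sign was below 0 under 11 alternatives.

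Lists of TRP53's own targets had medians below 0. Cdkn1a stood at 242.8, 231.6 and 251.3 CPM in Pole4+/+ Trp53+/+, at 11.8, 12.03 and 5.66 in Pole4+/+ Trp53-/-, at 342.4, 361.3 and 362.6 in Pole4-/- Trp53+/+ and at 8.80, 6.07 and 5.17 CPM in Pole4-/- Trp53-/- libraries. It was higher in every Pole4-/- Trp53+/+ library than in any Pole4+/+ Trp53+/+ library, and the Trp53-/- libraries overlapped. Trp53 loss changed it by -4.59 (SE 0.24) in Pole4+/+ and -5.72 (SE 0.26) in Pole4-/- cells on the log2 scale, and the interaction of -1.13 (SE 0.31) had an adjusted p of 0.0616 by edgeR. Mdm2, the ubiquitin ligase that degrades TRP53, had an interaction of -0.11 (SE 0.15). The lists of TRP53 targets in arrest and feedback, in apoptosis and in metabolism, autophagy and repair had medians of -0.23, -0.47 and -0.34 over 25, 18 and 34 genes. None of their genes was called, and 8, 7 and 13 were below 0 at an unadjusted p under 0.05, where 14.5% of all genes were. Without replicate 1 of Pole4+/+ Trp53-/- the median of the apoptosis list was -0.23.

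The lowest medians were those of immune and matrix lists, and their size hung on 1 library. Complement and acute phase genes had a median of -2.56 over 10 genes, immunity-related and guanylate-binding GTPases -1.50 over 9, type I interferon-stimulated genes -1.20 over 33, antigen presentation -1.04 over 13 and matrix proteins other than collagens -0.98 over 48. Only the GTPases had a called gene, Igtp. At an unadjusted p under 0.05, 8, 4, 20, 8 and 28 genes of these lists were below 0, where 14.5% of all genes were. The mean log2 CPM of the complement list was 0.98, 0.44 and 1.22 in Pole4+/+ Trp53+/+, 2.64, 0.21 and 0.52 in Pole4+/+ Trp53-/-, 2.64, 2.33 and 2.62 in Pole4-/- Trp53+/+ and 0.53, 0.91 and 0.68 in Pole4-/- Trp53-/- libraries. Replicate 1 of Pole4+/+ Trp53-/- lay with the Pole4-/- Trp53+/+ libraries and not with its own genotype. Without it the medians were -1.19 for complement, -0.17 for the GTPases, -0.61 for interferon-stimulated genes -0.57 for antigen presentation and -0.55 for Other matrix proteins (those other than collagens). By voom they were -1.36 for Complement and acute phase genes and -0.54 for these matrix proteins. The median of Immunity-related and guanylate-binding GTPases was -0.80 with a mean of at least 50 counts and -0.97 with the 12 libraries alone.

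Apart from Igtp, described above, no gene of these lists passed the adjusted threshold. Serping1, which inhibits the first complement component, stood at 5.83, 3.52 and 5.64 CPM in Pole4+/+ Trp53+/+, at 19.02, 3.26 and 2.91 in Pole4+/+ Trp53-/-, at 19.5, 18.1 and 21.1 in Pole4-/- Trp53+/+ and at 4.26, 4.55 and 3.18 CPM in Pole4-/- Trp53-/- libraries, with an interaction of -3.06 (SE 0.77). Here too replicate 1 of Pole4+/+ Trp53-/- lay near the Pole4-/- Trp53+/+ libraries. Tap1, which carries peptides to class I molecules, stood at 3.57, 2.27 and 4.45 CPM, at 1.87, 0.582 and 0.323 CPM, at 9.92, 8.93 and 9.24 CPM and at 0.227, 0.471 and 0.464 CPM in the same order. For Tap1 the same replicate lay between its genotype and Pole4+/+ Trp53+/+, and the interaction was -2.85 (SE 0.67, adjusted p 0.0517 by edgeR). Ifitm1 (-3.22, SE 0.71), an antiviral membrane protein, Trim30a (-3.83, SE 0.93), an interferon-induced ligase, H2-K1 (-1.04, SE 0.32), a class I molecule, Comp (-5.36, SE 1.22), a cartilage matrix protein, and Mfap2 (-1.48, SE 0.35), a microfibril protein, had adjusted p values of 0.0502 to 0.0752. Iigp1, a GTPase like Igtp, had a value of -4.76 (SE 1.297) from levels of at most 1.12 CPM in the 12 libraries. The sequences of this GTPase family and of class I genes are alike, so reads may have been divided among copies.

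Of the other lists with a called gene, the Wnt pathway had a median of -0.47 over 36 genes, with Nkd1 called and Sfrp1, a secreted Wnt antagonist, at -1.73 (SE 0.44). The median of the Wnt pathway was -0.20 without the male libraries and -0.24 by voom, without replicate 1 of Pole4+/+ Trp53-/- or without replicate 2 of Pole4-/- Trp53+/+. Secreted cytokines and chemokines had 0.24 over 28 genes, with Cxcl14 called below 0 and Vegfd, a lymphatic growth factor, at -2.06 (SE 0.64). The median of this list ran from 0.11, by voom, to 0.38 without replicate 2 of Pole4+/+ Trp53-/-. Limb and body wall patterning factors had 0.00 over 58 genes, with Foxp2 called and Tbx15, a limb transcription factor, at -0.55 (SE 0.13). The 34 functional lists not described in full had medians of -0.87 to 0.82, the ends being the collagens, with 24 of 32 genes below 0 at an unadjusted p under 0.05 and a median of -0.52 by voom, and ribosome biogenesis, with 37 of 38 above 0. The median of all genes moved with the scaling. It was -0.15 with library totals and -0.11 with upper quartiles against -0.02 with TMM, and the median of the patterning factors changed sign under 8 alternatives.

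The Trp53+/- libraries were in no arm of the contrast. There Pole4 loss gave a log2 fold change below 0 for 24 of the 28 genes above 0 in the interaction, and for 10 of the 24 below 0, where 51.1% of all genes were below 0. The median change with Pole4 loss over the 28 genes was -0.83 in Trp53+/+, -0.28 in Trp53+/- and 0.26 in Trp53-/- cells. Over the 24 genes it was 1.196, 0.17 and -0.62. In each of the 52 genes the value in Trp53+/- cells lay between the values in the other 2 genotypes, which were far apart by the choice of the genes. Ulbp1 was the only gene of the 52 called there, and the only one of all genes (0.00637%), with 14.4, 12.2 and 11.1 CPM in Pole4+/+ Trp53+/- and 5.26, 5.14 and 4.99 CPM in Pole4-/- Trp53+/- libraries. Without adjustment 866 genes had a p under 0.05, DESeq2 called 39 and voom 246. Top2a stood at 329.3, 292.3 and 294.8 CPM in Pole4+/+ Trp53+/- and at 254.6, 284.3 and 220.0 in Pole4-/- Trp53+/- libraries, which did not overlap. All 3 Pole4+/+ Trp53+/- libraries were male, and 1 of the 3 Pole4-/- Trp53+/- libraries was.

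**Figure D5:**
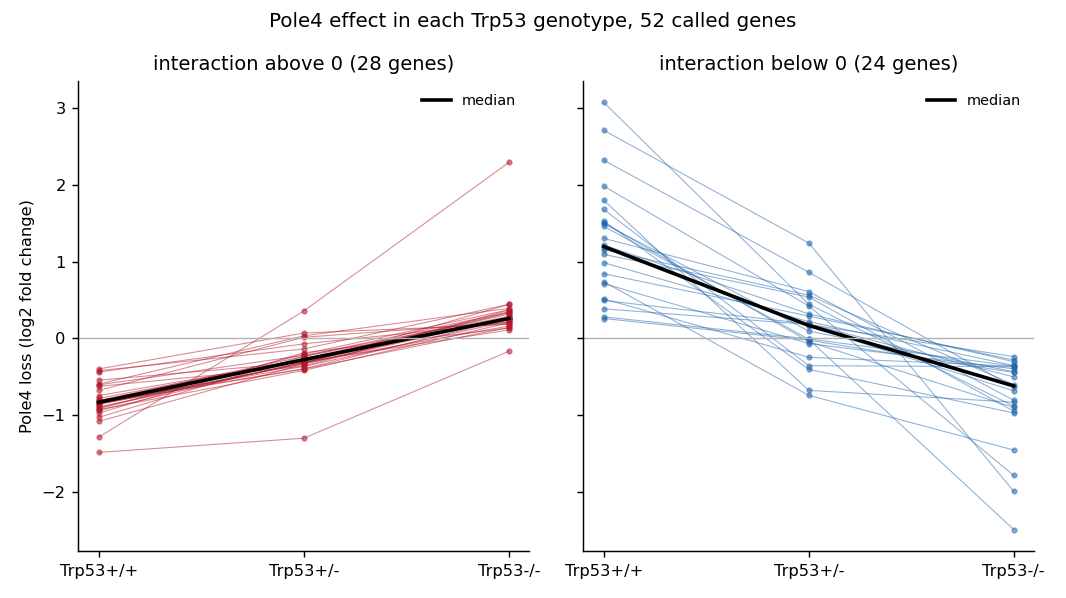
Log2 fold change with Pole4 loss (vertical axis) in Trp53+/+, Trp53+/- and Trp53-/- cells (horizontal axis) for the 28 genes with an interaction above 0 (left, red) and the 24 below 0 (right, blue); thin lines are genes and the thick line is the median. The median runs from -0.83 to 0.26 on the left and from 1.196 to -0.62 on the right, with the heterozygotes between.

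Markers of the labelled cell type were high in every library. The 12 fibroblast markers summed to 14400 to 31450 CPM and were highest in Pole4-/- Trp53+/+ libraries, at 25410 to 31450, with Col1a1 the most abundant. Of these markers 6 had an interaction below 0 at an unadjusted p under 0.05 and none was called. Erythroid markers summed to 0 to 2.75 CPM, with Hba-a1 and Slc4a1 at 0 in all 12 libraries, and macrophage markers to 7.04 to 75.3 CPM with overlapping ranges. All 14 macrophage markers tested had an interaction above 0, with a median of 1.58, and none had an unadjusted p under 0.05. Over the alternative settings this median ran from -0.36, by voom, to 3.15. The 5 epithelial markers tested had a median of 1.45, which ran from 0.54, by voom, to 2.09. The part of either cell type in the results was not tested. Skeletal muscle markers summed to 122.1 to 158.5 CPM in Trp53+/+ and to 55.8 to 86.9 CPM in Trp53-/- libraries, and cartilage and bone markers to 1265 to 1587 CPM in Pole4-/- Trp53+/+ against 383.4 to 1100.0 CPM in the others. Adipocyte markers summed to 12.8 to 25.5 CPM, with Cidec and Lep at 0, neural and glial markers to 71.8 to 152.3, endothelial markers to 22.4 to 88.7 and epithelial markers to 11.5 to 48.9 CPM. In bulk RNA a change in the number of cells of a kind, such as dividing cells, cannot be told apart from a change of RNA per cell.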

How the data were processed

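The authors sequenced 18 MEF RNA libraries as paired reads and trimmed them with Trim Galore. Per the labels they used STAR 2.5.2 on GRCm38 and RSEM 1.3.0 (Ensembl genes). The deposited values are RSEM expected counts for 51912 genes, of which 6.14% are not whole. They were rounded here. GENCODE's GRCm38 annotation named 51719 genes. Whether RSEM counted by strand is not given in the sources used here. Levels are CPM, in which each count is divided by the effective library size, scaled by TMM in edgeR 4.0.16 (R 4.3.3). Genes were filtered by filterByExpr. A robust quasi-likelihood fit held a mean for each of the 6 genotypes (12 residual df). A gene was called at a Benjamini-Hochberg adjusted p under 0.05. The SE is the absolute log2 value over the square root of F. The tests were checked on simulated counts drawn independently for each gene and library. That check held no effect of sex or ribosomal RNA and no outlying library, so it does not bear on these.

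The contrast, the gene lists and the named genes were chosen with earlier results of these data known. Of 1857 names in 61 lists, 1855 matched. Functional lists are described where a gene was called, or where their median was among the 5 highest or 5 lowest of lists with at least 8 tested genes. Named genes are the 10 lowest, the 10 highest and the 10 of lowest p among those called, the called genes and the 2 of lowest p of each list described, the polymerase epsilon subunits, Trp53, Cdkn1a, Mdm2 and genes read for sex. Some genes named by this rule are not reported here. Other called genes, and genes named for an overlap, were named after their values were seen. Embryos were isolated individually, but whether the libraries of a genotype came from different embryos or litters is not given in the sources used here. The p-values measure the spread between these libraries. Alternatives were scaling by library totals or upper quartiles, no filter, a mean of at least 50 counts, DESeq2 1.42.0, limma 3.58.1 (voom with quality weights), a fit of 12 libraries, a replicate block, Xist as a covariate, no male libraries, no ribosomal RNA genes, leaving out each library, and an absolute log2 value of at least 1. The share of ribosomal RNA as a covariate was chosen after seeing the data. RefSeq promoters matched 27 of the 28 and 18 of the 24 called genes.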

Additional observations from a re-analysis of the deposited data

Results flagged for a closer look

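For 52 genes the change with Trp53 loss differed between Pole4-/- and Pole4+/+ cells by the test of that difference itself, at an adjusted p under 0.05 in edgeR's quasi-likelihood test. Of them, those named by the rule are given again here with their interaction log2 values, which are above 0 where the change was more positive in Pole4-/- cells. Among division and repair genes and others above 0, the values were 3.58 for Gm15731, 1.37 for Sgo1, 1.34 for Trip13, 1.32 for Ulbp1, 1.302 for Epb41l4a, 1.29 for Ect2, 1.16 for Pola1, 1.13 for Parpbp and 1.13 for Fignl1. They were further 1.10 for Kntc1, 1.06 for Fam111a, 1.06 for Bub1b, 0.88 for Brca1, 1.05 for BC055324, 1.10 for Top2a, 0.99 for Fanci, 0.99 for Brip1 and 1.08 for Knl1. The last of these were 1.09 for Kif14, 1.05 for Kif11, 1.07 for Ncapg and 1.07 for Ncapg2. Among genes below 0, the values were -4.70 for Nkain4, -3.95 for Pamr1, -3.95 for Igtp, -3.77 for Lgals3bp, -2.96 for Col28a1, -2.63 for Nkd1, -2.50 for Htra3 and -2.40 for Csdc2. They were further -2.19 for Tspan13, -2.11 for Efs, -1.12 for Cst3, -1.93 for Csgalnact1, -1.34 for Aplp1, -2.05 for Cxcl14 and -1.86 for Foxp2. Replicate 1 of Pole4+/+ Trp53-/- lay apart from its genotype for Lgals3bp, Igtp, Pamr1, Nkain4 and Nkd1 among others, and the values of these 5 genes without it stand in the results above. The part of sex and of ribosomal RNA, which moved with the Pole4 genotype, was not separated from these values: no gene was called with either as a covariate, where 4113 and 4012 genes had an unadjusted p under 0.05. With Xist and with ribosomal RNA share the interaction log2 value of Fam111a was 1.04 and 1.03, the interaction log2 value of Bub1b 1.03 and 1.07, and the interaction log2 value of Cst3 -1.12 with both.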

How the results depend on the processing

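The 52 genes called for the interaction became 0 with library totals, with the 12 libraries alone, with Xist as a covariate, without male libraries and with ribosomal RNA share as a covariate, 308 with upper quartiles, 339 without a filter, 490 with a mean of at least 50 counts, 1678 by DESeq2, 1234 by voom and 326 without ribosomal RNA genes. A replicate block gave 548, including all 52. Replicate numbers were not taken to pair the samples, since only 6 of 18 same-numbered pairs had deviations correlated over 0.1 (median 0.0785, against 7 of 36 and -0.0666 for other pairs). Leaving out each library gave 0 to 3242 genes. Each of the 12 moved the count by over 1.5 times when left out. For Trp53 loss in Pole4-/- cells (6699 genes) the count was 3722 with library totals, 839 without males and 2295 at an absolute log2 value of at least 1, and 5108 to 7595 leaving out a library. For Trp53 loss in Pole4+/+ cells (723) it was 192, 226 and 268 in these settings, 1300 by DESeq2, 2946 by voom, 440 with 12 libraries and 325 to 2700 leaving out a library, the highest without replicate 1 of Pole4+/+ Trp53-/-. For Pole4 loss in Trp53+/+ cells (626) it was 2244 with library totals (57 higher and 2187 lower, against 202 and 424), 0 without males, 166 at an absolute log2 value of at least 1, 1503 by DESeq2, 5229 by voom, 17 with 12 libraries, 11 with Xist and 8 to 3222 leaving out a library. For Pole4 loss in Trp53-/- cells (1) it was 0 with library totals, upper quartiles, the mean of at least 50 counts, 12 libraries, the replicate block, no males or no ribosomal RNA genes, 2 without a filter, 29 by DESeq2 and 0 to 2 leaving out a library. In Trp53+/- cells (1) it was 0 with library totals or Xist, 39 by DESeq2, 246 by voom and 0 to 6 leaving out a library, and was not estimated with 12 libraries or without males. The causes were not tested. The E2F target median (0.82) kept its sign in every alternative, from 0.62 to 0.96. Of 1710 values of named genes under alternatives, 1027 kept direction and side of the threshold, 482 fell short of it, 179 newly passed it and 22 changed sign, all in Pole4 and 4 genes read for sex. The interaction log2 value of Pole4 was -0.11 with library totals, -0.066 with upper quartiles, -0.035 with the mean of at least 50 counts, -0.072 by voom, -0.11 without males, -0.023 with ribosomal RNA share, and -0.22 to 0.164 leaving out a library. The interaction log2 value of Xist was -0.045 with library totals, -0.62 without males and -0.34 to 9.08 leaving out a library. By voom Eif2s3y was 0.31 and Kdm5d 0.43, without males Uty was 0.13, and leaving out a library the interaction log2 value of Eif2s3y ran from -13.2 to 1.86, the interaction log2 value of Kdm5d from -10.4 to 2.80 and the interaction log2 value of Uty from -11.95 to 1.21, with the highest values without replicate 1 of Pole4+/+ Trp53-/-. Without male libraries Pole4-/- Trp53+/+ kept 1 library, assumed to vary like the others, and depth of 10608167 to 32155281 counts limits genes of few counts.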
